A study of Homo sapiens with 6 samples.

Results

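The genes described here are 10 glycosyltransferases and sialyltransferases that build gangliosides, among them the tumour antigen GD2, and globosides. They were taken by gene name from a table of 60662 genes, and each of the 10 names matched 1 row. Expression was measured by stranded, paired-end sequencing of messenger RNA in TC-71, an established cell line of Ewing sarcoma, a tumour of bone. Of the 6 libraries, 3 were wildtype and 3 carried a knockout of XG, which encodes a cell-surface glycoprotein with the Xg blood group antigen; all were otherwise untreated cells in the same serum-supplemented medium. Whether a pool or 1 clone of knockout cells was used, and whether replicates were separate cultures, is not in the labels, so clonal differences cannot be told apart from those of the knockout, and p-values rest on the spread among these libraries, which may be technical.

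Gangliosides and globosides are glycolipids of the outer leaf of the cell membrane, built in the Golgi by adding 1 sugar at a time to ceramide. UGCG adds glucose and the lactosylceramide synthases B4GALT5 and B4GALT6 add galactose, after which the pathway divides. ST3GAL5 adds a sialic acid to give the ganglioside GM3, from which ST8SIA1 makes GD3 and B4GALNT1 makes GM2 or, from GD3, GD2, with B3GALT4 and ST3GAL2 extending these chains further. A4GALT instead adds a galactose to give the globoside Gb3, which B3GALNT1 turns into Gb4, the P blood group antigen. GD2 is displayed by neuroblastoma and by many Ewing sarcomas and is the target of therapeutic antibodies.

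Library totals ranged from 22557187 to 31214099 counts, and XG itself stood at 45.4, 47.1 and 44.5 CPM (fragment counts scaled to a common library size with trimmed-mean factors) in wildtype and 30.0, 30.0 and 28.9 CPM in knockout replicates 1, 2 and 3, a fall with no overlap but with transcript left in every knockout library. All 9 genes of a list of Ewing sarcoma markers passed the filter on low counts, with NKX2-2 at 18 and NR0B1 at 75.7 CPM in wildtype. Of these 9, 7 had negative log2 fold changes, 5 were lower in knockout libraries without overlap, and 2 (CD99 and PAPPA) were called lower. Over all genes tested, 9.8% were lower without overlap and 0.915% were called lower. After GC correction PAPPA stayed called (edgeR adjusted p = 0.0026) and CD99 did not (0.142). EWSR1, not called before the correction (edgeR adjusted p = 0.0818), was called lower after it (log2 fold change -0.13, adjusted p = 0.0026). The fit with GC correction called 2.35% of all genes in either direction. Of 6 neuroblast and melanocyte markers, 4 had 0 counts in every library, TH, DBH and MLANA among them, while HAND2 averaged 11.3 CPM in wildtype and 11.1 CPM in knockout libraries and PMEL 0.714 and 0.862 CPM. Summed fibroblast and matrix markers ranged from 77.4 to 83.3 CPM in wildtype and from 73.1 to 82.3 CPM in knockout libraries, mostly COL1A1 and COL3A1, with COL1A2 and PDGFRA near 0. Summed blood cell markers reached at most 0.201 CPM and endothelial markers at most 0.253 CPM in any library. Summed epithelial markers ranged from 5.14 to 5.72 CPM in wildtype and from 7.01 to 7.59 CPM in knockout libraries, carried by KRT8 and KRT18, while EPCAM averaged 0.24 and 0.203 CPM. Knockout replicates 1 and 2 stood apart in GC content: the GC-richest quintile of tested genes, against the GC-poorest quintile, was at -0.23 and -0.18 on the log2 scale relative to wildtype, and at 0.02 in knockout replicate 3. Knockout replicate 3 also lay nearer in counts to wildtype replicates 1, 2 and 3, at a chi-square per tested gene of 2.28, 2.38 and 2.15. Against knockout replicates 1 and 2 it was 4.70 and 4.33, while those 2 stood at 2.58 from each other. Pairs of wildtype libraries had 1.46 to 1.69. The part of these marker, GC and library differences in the results was not tested. Values with a correction for GC content, without knockout replicate 3 or with that library alone stand beside results they move.

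Of the 10 synthases, ST8SIA1 rose and B3GALNT1 fell in XG knockout cells, and 7 of the 9 tested did not pass the test. ST8SIA1, the GD3 synthase, was 1.56-fold higher, and B3GALNT1, the globoside synthase, stood at 78.8% of wildtype. The test was edgeR's quasi-likelihood test over 14425 genes with Benjamini-Hochberg adjustment and a threshold of 0.05, which called 1.36% of all genes, 0.444% higher and 0.915% lower. The tenth member, B3GALT4, was too low to be tested. Among the 9, 5 log2 fold changes were positive and 4 negative, with a median of 0.02, beside 0.002 over all genes tested. Groups did not overlap in the same 2 members, beside 20.5% of all genes (10.7% higher and 9.8% lower in knockout).

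**Figure D1:**
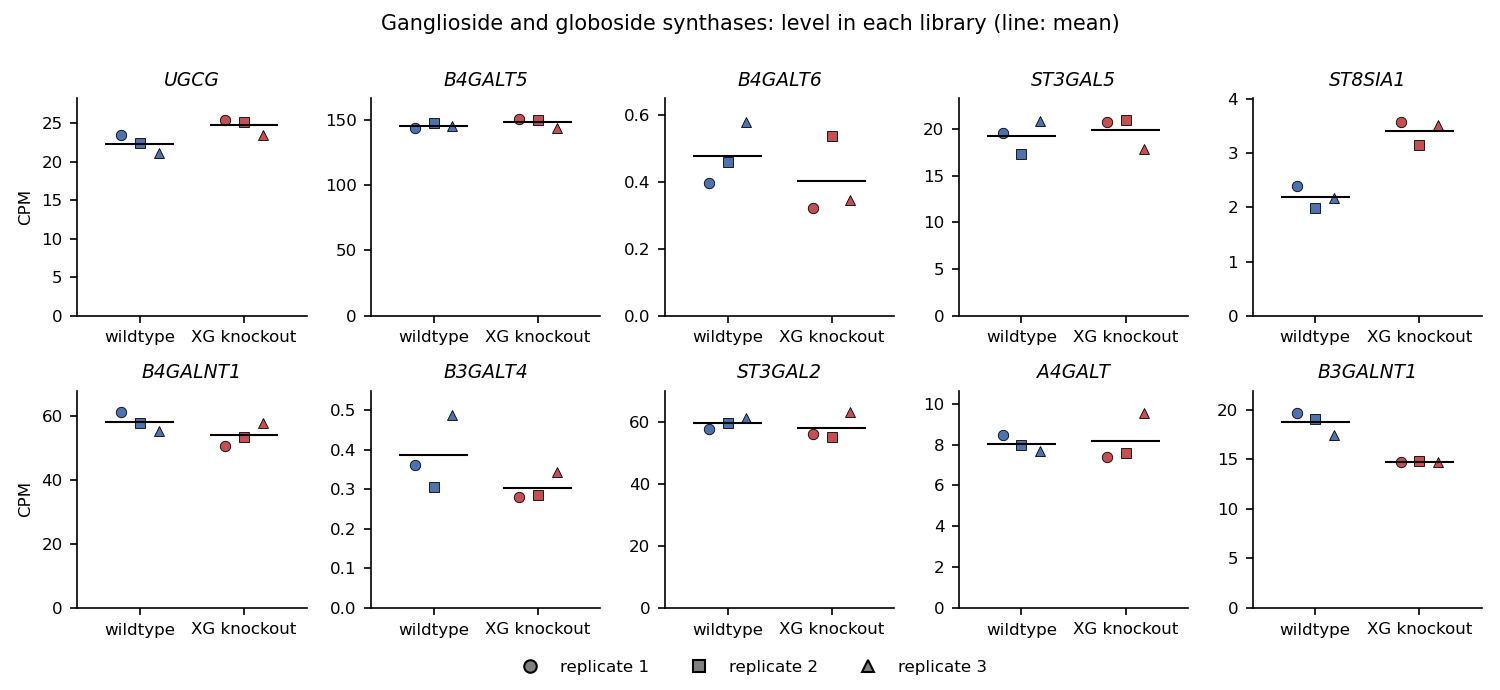
Level of each of the 10 synthases in CPM (vertical axis, from 0) in 3 wildtype (blue) and 3 XG knockout (red) libraries, with symbols for replicates and a line for the mean. ST8SIA1 lies between 1.996 and 2.39 CPM in wildtype and between 3.16 and 3.58 CPM in knockout libraries, and B3GALNT1 between 17.4 and 19.7 and between 14.7 and 14.8 CPM.

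A promoter sequence of each of these 2 genes is shown because they are the members whose transcripts changed. RefSeq promoter windows on GRCh38.p14 were at hand for 6 of the 10 members (UGCG, B4GALT5, ST3GAL5, ST8SIA1, A4GALT and B3GALNT1). Each window lies upstream of 1 RefSeq start. For ST8SIA1 (22063773 to 22437041 as counted) and B3GALNT1 (161083883 to 161105411), that start is inside the gene, downstream of its annotated 5′ end. The same holds for ST3GAL5 and A4GALT. Which start TC-71 uses was not tested. Each stretch is on the minus strand, written 5′ to 3′, with annotated exons of the gene left out; capitals mark GGAA or its reverse complement TTCC, the core letters bound by ETS factors, the family of the FLI1 part of the Ewing sarcoma fusion.
ST8SIA1 (chr12:22334715-22334957): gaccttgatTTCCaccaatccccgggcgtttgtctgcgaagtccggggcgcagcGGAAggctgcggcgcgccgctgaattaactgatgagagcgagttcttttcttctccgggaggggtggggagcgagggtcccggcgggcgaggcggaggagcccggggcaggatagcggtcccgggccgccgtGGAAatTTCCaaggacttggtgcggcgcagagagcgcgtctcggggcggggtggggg
B3GALNT1 (chr3:161105412-161105599): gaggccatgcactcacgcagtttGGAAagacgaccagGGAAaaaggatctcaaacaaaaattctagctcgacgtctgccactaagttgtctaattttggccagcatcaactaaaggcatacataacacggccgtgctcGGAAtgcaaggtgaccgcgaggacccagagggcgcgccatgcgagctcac
Within 250 bases upstream of the start, each of these 2 genes held 4 such cores on both strands together. For B3GALNT1, 3 of the 4 lie in the printed stretch and the other in the part left out. Of 27305 windows of that length, 34.5% held at least as many and 92.8% held at least 1. The adjacent pair GGAAGGAA or TTCCTTCC was in neither window, and in 2.99% of all windows. The ST8SIA1 window had 28 CpG dinucleotides and the B3GALNT1 window 20, against a median of 11. These letter matches describe the windows only. The other windows held 3 cores for UGCG, 1 each for B4GALT5 and ST3GAL5 and 0 for A4GALT, and their GC content ran from 75.6% to 79.2%, against 69.2% for ST8SIA1 and 60.8% for B3GALNT1.

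The first step of the pathway, glucosylceramide synthesis by UGCG (ENSG00000148154.10, chromosome 9, 111896814 to 111935369, plus strand, GRCh38), was at 23.5, 22.5 and 21.1 CPM in wildtype libraries, and at 25.4, 25.2 and 23.4 CPM with XG knocked out. Knockout replicates 1 and 2 lay above every wildtype library, while knockout replicate 3 fell among them. The GC content of the transcript is 40.85%, and the part of GC content in this split was not tested. The UGCG log2 fold change was 0.14 (95% interval 0.01 to 0.27), with an unadjusted p = 0.0306 and an edgeR adjusted p = 0.244. It was positive in all 16 alternatives fitted, from 0.07 to 0.18, and passed the threshold in none of them (lowest adjusted p = 0.0519, without knockout replicate 3). With GC correction the log2 fold change of UGCG was 0.11 (edgeR adjusted p = 0.385).

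Of the pair of lactosylceramide synthases, nearly all transcripts were B4GALT5. B4GALT5 (ENSG00000158470.5, chromosome 20, 49632945 to 49713878, minus strand) was at 144.2, 147.4 and 145.4 CPM in wildtype and at 151.2, 149.9 and 143.8 CPM in knockout libraries. Its groups overlapped, and its log2 fold change of 0.03 had the narrowest interval of the members (-0.04 to 0.09; edgeR adjusted p = 0.741). B4GALT6 (ENSG00000118276.11, chromosome 18, 31622247 to 31685836, minus strand), the form known from brain, had 11, 12 and 13 counts in wildtype and 8, 17 and 10 in knockout libraries. With so few fragments its log2 fold change of -0.21 had an interval of -0.96 to 0.54, and a difference inside it was not detectable at this depth. Counts of B4GALT5 exceeded those of B4GALT6 by 251.5-fold to 470.5-fold within a library.

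ST3GAL5 (ENSG00000115525.18, chromosome 2, 85837120 to 85905199, minus strand), the GM3 synthase that commits lactosylceramide to gangliosides, showed no difference beyond its spread. Its levels were 19.6, 17.3 and 20.9 CPM in wildtype and 20.8, 21.0 and 17.9 CPM in knockout libraries. The lowest library of each group, wildtype replicate 2 and knockout replicate 3, lay below all others, and the ranges overlapped. Its log2 fold change was 0.05 (95% interval -0.11 to 0.21, edgeR adjusted p = 0.8), and it was -0.10 with knockout replicate 3 alone.

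ST8SIA1 (ENSG00000111728.10, chromosome 12, 22063773 to 22437041, minus strand), the GD3 synthase whose product is the substrate for GD2, rose. It had 66, 52 and 49 counts in wildtype and 89, 100 and 102 counts in knockout libraries, or 2.39, 1.996 and 2.18 CPM against 3.58, 3.16 and 3.52 CPM. Every knockout library lay above every wildtype library, and the gap between the groups was wider than the range within either. Means of 2.19 ± 0.196 and 3.42 ± 0.225 CPM (SD, n = 3) gave a 1.56-fold difference with a 95% interval of 1.25 to 1.93, which is 0.64 as log2 fold change (standard error 0.147; adjusted p = 0.0385 by edgeR). Among all genes tested, 1.05% had a smaller p. With 39.8% GC in its transcript, it gave 0.60 after GC correction on the log2 scale (edgeR adjusted p = 0.0272).
The size of the ST8SIA1 difference varied little with the library left out, while its call depended on most of them. Over the 6 fits that leave out 1 library, the log2 fold change ran from 0.57 to 0.71. The edgeR adjusted p was 0.136, 0.215 and 0.17 when wildtype replicate 1, 2 or 3 was dropped. Dropping knockout replicate 1, 2 or 3 gave an edgeR adjusted p of 0.106, 0.087 and 0.0152. Taking knockout replicate 3 as the only knockout library, with its spread assumed equal to that among wildtype libraries, gave 0.68 on the log2 scale (edgeR adjusted p = 0.103). DESeq2 gave a log2 fold change of 0.64 and an unadjusted p = 0.00267, with no adjusted p because of its filter on low means. Of the 5 epithelial markers, 2 passed the filter; KRT18 rose in the same libraries (mean 2.03 and 3.26 CPM, edgeR adjusted p = 0.0302), KRT8 did not pass (3.11 and 3.87 CPM), and EPCAM was near 0. Their part in the result was not tested.

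B4GALNT1 (ENSG00000135454.14, chromosome 12, 57623409 to 57633239, minus strand), which adds N-acetylgalactosamine to make GM2 and GD2, was far more abundant than ST8SIA1. Its levels were 61.3, 57.8 and 55.3 CPM in wildtype and 50.8, 53.3 and 57.8 CPM in knockout libraries. Knockout replicates 1 and 2 lay below every wildtype library, and knockout replicate 3 lay among them. Its log2 fold change of -0.11 (95% interval -0.21 to -0.0011) did not pass the test (unadjusted p = 0.048, edgeR adjusted p = 0.293). Without knockout replicate 3 it was -0.16 (edgeR adjusted p = 0.0133), in a fit that called 12.7% of all genes, and with that library alone it was -0.01. The transcript's GC content is 58.3%, and after GC correction the log2 fold change of B4GALNT1 was -0.05 (adjusted p = 0.66). Of its exon length, 27.1% overlaps genes on the opposite strand, which strand-specific counting keeps apart.

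B3GALT4 (ENSG00000235863.4, chromosome 6, 33277123 to 33284832, plus strand), which extends GM2 to GM1 and GD2 to GD1b, was close to the limit of detection. It had 10, 8 and 11 counts in wildtype and 7, 9 and 10 in knockout libraries. The summed counts were 29 in wildtype (exact 95% Poisson interval 19.4 to 41.7) and 26 in knockout libraries (17.0 to 38.1), intervals that cover counting error only. A difference between the groups was not detectable at this depth.

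ST3GAL2 (ENSG00000157350.13, chromosome 16, 70375977 to 70439237, minus strand), which caps the extended chains with sialic acid, was at 57.7, 59.7 and 61.1 CPM in wildtype. Knockout libraries were at 55.8, 54.9 and 63.2 CPM, so that replicates 1 and 2 were the lowest and replicate 3 the highest of all 6. The ST3GAL2 log2 fold change was -0.04 (95% interval -0.14 to 0.07, edgeR adjusted p = 0.777), and 0.004 after GC correction. As with B4GALNT1, this is a GC-rich transcript (55.5%), and the split of the knockout libraries ran the same way as for the GC-richest quintile; the part of GC content in it was not tested.

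On the globoside branch, A4GALT (ENSG00000128274.17, chromosome 22, 42692121 to 42721298, minus strand), the Gb3 synthase of the P1PK blood group, did not differ beyond its spread. It was at 8.47, 7.98 and 7.70 CPM in wildtype and at 7.39, 7.59 and 9.56 CPM in knockout libraries. Here too knockout replicates 1 and 2 were the lowest and replicate 3 the highest, and the GC content is 61.8%. The log2 fold change of A4GALT was 0.02 (95% interval -0.20 to 0.24, edgeR adjusted p = 0.936), 0.11 after GC correction (adjusted p = 0.633), -0.11 without knockout replicate 3 and 0.25 with it alone (adjusted p = 0.483).

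B3GALNT1 (ENSG00000169255.15, chromosome 3, 161083883 to 161105411, minus strand), which converts Gb3 into Gb4, fell. It had 544, 498 and 392 counts in wildtype and 366, 469 and 428 counts in knockout libraries, or 19.7, 19.1 and 17.4 CPM against 14.7, 14.8 and 14.8 CPM. The 3 knockout libraries were almost equal and lay below every wildtype library, and the spread was in the wildtype group. Means of 18.8 ± 1.17 and 14.8 ± 0.0641 CPM (SD, n = 3) gave -0.35 as log2 fold change (standard error 0.0664; 95% interval -0.49 to -0.21; adjusted p = 0.0149 by edgeR). A smaller p was seen in 0.35% of all genes tested. The GC content of the B3GALNT1 transcript is 40%, and the part of GC content in its fall was not tested. Its log2 fold change was -0.38 after GC correction (edgeR adjusted p = 0.000385), -0.35 on dropping knockout replicate 3 (adjusted p = 0.000735) and -0.35 with that library alone (adjusted p = 0.0231).
The call of B3GALNT1 was lost without wildtype replicate 1 (log2 fold change -0.31, edgeR adjusted p = 0.137), without wildtype replicate 2 (-0.33, adjusted p = 0.106) and without knockout replicate 2 (-0.35, adjusted p = 0.0643). Its adjusted p was 0.0417 without wildtype replicate 3 and 0.0449 without knockout replicate 1, and DESeq2 gave 0.0134. The count table also lists a pseudogene, B3GALNT1P1, and fragments matching both places were not counted, which leaves the level somewhat uncertain.

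**Figure D2:**
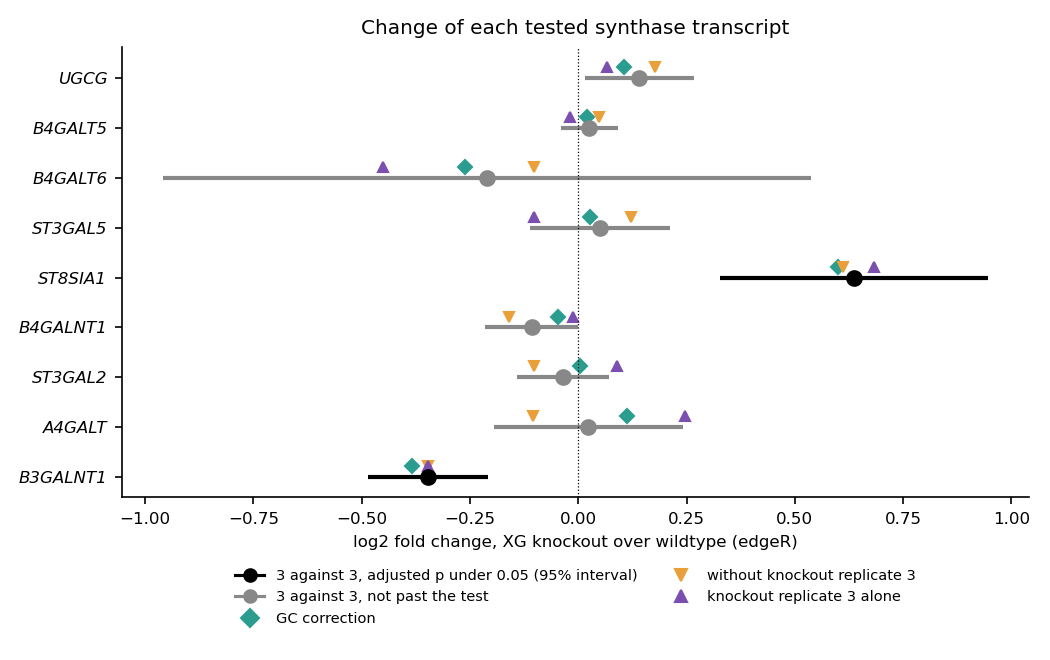
Log2 fold change of XG knockout over wildtype (horizontal axis) for the 9 tested synthases, with 95% intervals of the fit of 3 against 3 libraries; black marks adjusted p under 0.05, and smaller symbols give GC correction, the fit without knockout replicate 3 and the fit with it alone. The 4 estimates stay on 1 side of 0 for the called ST8SIA1 and B3GALNT1 and also for the uncalled UGCG, B4GALNT1 and B4GALT6, and fall on both sides for ST3GAL5, ST3GAL2, A4GALT and B4GALT5.

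The number of synthases called can be read against the share of all genes called in the same fit. Both ST8SIA1 and B3GALNT1 were called with relative log expression scaling (1.46% of all genes), upper quartile scaling (1.42%), limma voom (1.5%), no filter on low counts (2.37%) and GC correction (2.35%, with 157 genes higher and 182 lower against 64 and 132 before it). The limma voom call of ST8SIA1 lay at the threshold, with an adjusted p of 0.05 when rounded. Dropping knockout replicate 3 (12.7%) added B4GALNT1 as the third. B3GALNT1 alone was called by DESeq2 (1.39%), with at least 100 counts in 3 libraries (1.26%), with GC correction and replicate block (1.28%), with knockout replicate 3 as the only knockout library (0.83%), and on dropping wildtype replicate 3 (0.122%) or knockout replicate 1 (0.457%). Neither was called with the replicate block (0.256%) or on dropping wildtype replicate 1 (0.164%), wildtype replicate 2 (0.177%) or knockout replicate 2 (0.281%).

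Levels of the 10 synthases were then set in order per length, as CPM per kilobase of annotated exon. B4GALT5 led with 30.9 ± 0.349 CPM per kilobase in wildtype (SD, n = 3), 4.19-fold over the next. By its mean over all 6 libraries it stood above 89.8% of tested genes. B4GALNT1, ST3GAL2 and UGCG followed at 7.37, 6.10 and 4.89, B3GALNT1 and A4GALT at 2.40 each, and ST3GAL5 at 1.18 CPM per kilobase. The lowest were B3GALT4 at 0.163, ST8SIA1 at 0.151 and B4GALT6 at 0.0903 CPM per kilobase. In wildtype libraries the neighbours B3GALNT1 and A4GALT, and B3GALT4 and ST8SIA1, overlapped in range, and all other neighbours in the order were apart. The sialyltransferase that makes GD3 was thus near the bottom of the order, and the transferase that makes GD2 from it near the top. By its mean over all 6 libraries, ST8SIA1 stood above 7.4% of tested genes.

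In XG knockout libraries the order changed at 2 places, both at the members that changed. B3GALNT1 (1.89 ± 0.0082 CPM per kilobase, SD, n = 3) came to lie below A4GALT (2.44 ± 0.357) without overlap. ST8SIA1 (0.236 ± 0.0155) came to lie above B3GALT4 (0.128 ± 0.0152), also without overlap. B4GALNT1 and ST3GAL2, at 6.84 and 5.95 CPM per kilobase, overlapped in knockout libraries. Exon length here is the union over all annotated transcripts, and any exon that TC-71 does not use places its gene too low; ST3GAL5 and ST8SIA1 have the longest, 16300 and 14483 bases.

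**Figure D3:**
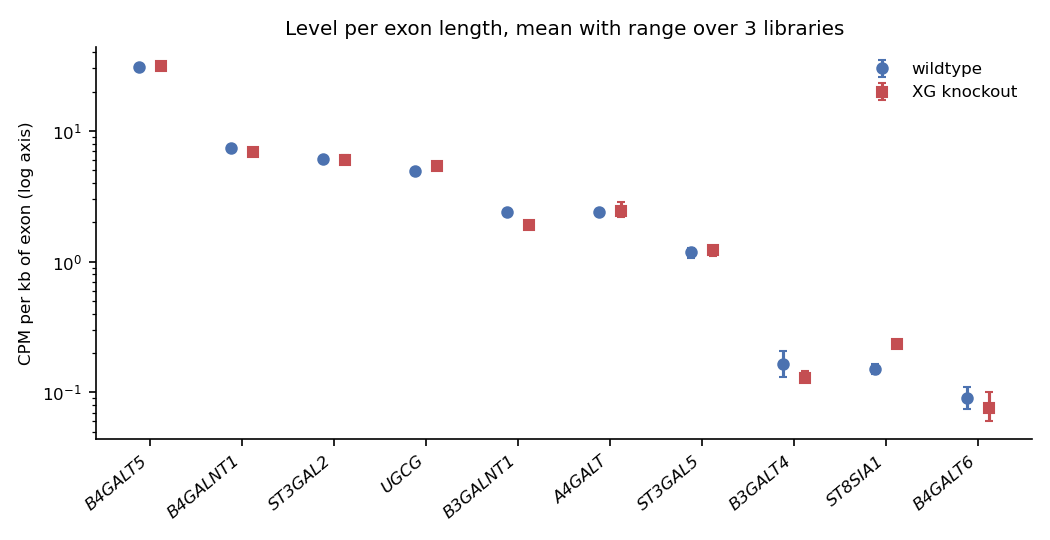
Level per exon length (CPM per kilobase, log axis) of the 10 synthases in wildtype (blue circles) and XG knockout (red squares), as means with the range over 3 libraries. Levels run from about 31 for B4GALT5 down to below 0.1 for B4GALT6, and the groups are apart at B3GALNT1 and ST8SIA1.

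Ratios of 2 genes within a library do not depend on how libraries are scaled, and are given as a description with no test. For each ST8SIA1 fragment there were 25.7, 28.96 and 25.4 fragments of B4GALNT1 in wildtype and 14.2, 16.9 and 16.4 in knockout libraries. Both enzymes act on the way to GD2, and the knockout ratio was 59.3% of that in wildtype, with no overlap. The transcripts differ in GC content, 58.3% for B4GALNT1 and 39.8% for ST8SIA1. After GC correction their log2 fold changes were -0.05 and 0.60. The part of GC content in this ratio was not tested. The ratio of B3GALNT1 to A4GALT, the 2 consecutive globoside enzymes, was 2.33, 2.39 and 2.27 in wildtype and 1.99, 1.95 and 1.55 in knockout libraries. It was lower in each knockout library, with the lowest value in replicate 3, where the GC-rich A4GALT was highest. The ratio of ST3GAL5 to A4GALT, which compete for lactosylceramide, was 2.32, 2.17 and 2.71 in wildtype and 2.82, 2.77 and 1.87 in knockout libraries, and the groups overlapped.

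**Figure D4:**
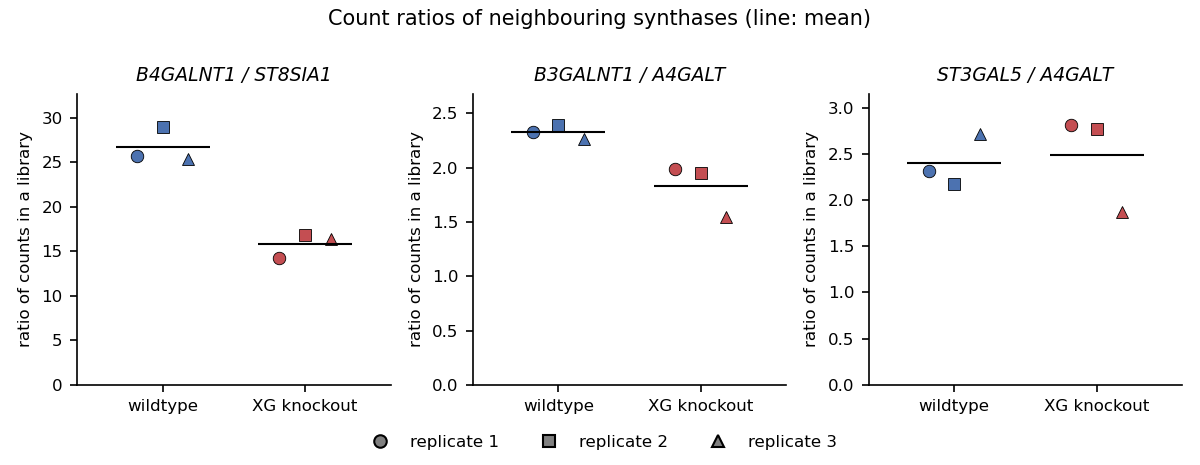
Ratio of fragment counts of 2 synthases in the same library (vertical axes, from 0) in wildtype (blue) and XG knockout (red), with symbols for replicates and a line for the mean. The B4GALNT1 to ST8SIA1 ratio averages 26.7 in wildtype and 15.8 in knockout libraries and the B3GALNT1 to A4GALT ratio 2.33 and 1.83, both without overlap, whereas ST3GAL5 to A4GALT overlaps.

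The rest of the glycolipid pathway was followed in 5 lists with 91 genes, of which 75 were tested. None was called by edgeR, DESeq2 or limma voom, and the lowest edgeR adjusted p was 0.108. At an unadjusted p under 0.05 there were 11 genes, 9 higher and 2 lower, or 14.7% against 16.8% of all genes tested. Log2 fold changes ran from -0.42 to 0.20, with 45 positive and 30 negative and a median of 0.01. Over all genes tested, 7341 were positive and 7084 negative, with a median of 0.002. The split by direction in the lists was not tested. After GC correction 1 gene passed, GBA2, and without knockout replicate 3 there were 7, in the fit that called 12.7% of all genes. These 7 were B4GALT2 (log2 fold change -0.20, edgeR adjusted p = 0.000173), UGP2 (0.16, 0.00282), ORMDL1 (0.16, 0.00753), UAP1 (0.11, 0.0111), GNPNAT1 (0.12, 0.0124), SPTLC2 (0.13, 0.025) and GALK1 (-0.20, 0.0392), of which GNPNAT1 and GALK1 are named after their values were seen. With knockout replicate 3 alone none was called, B4GALT2 having -0.05 and UGP2 0.08.

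Among 23 other glycolipid transferases, 13 were tested, and the 2 with the smallest p were B4GALT2 and ST6GALNAC3. B4GALT2, a galactosyltransferase related to B4GALT5, was at 106.4 ± 5.94 (wildtype) and 96.2 ± 5.84 CPM (knockout) (SD, n = 3; log2 fold change -0.14, edgeR adjusted p = 0.117), and -0.06 after GC correction. ST6GALNAC3, a sialyltransferase, was at 7.15 ± 0.408 and 7.89 ± 0.333 CPM (adjusted p = 0.464).

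Ceramide and sphingomyelin genes, which supply the lipid, had 18 of 22 tested and a median log2 fold change of 0.007. SPTLC2, a subunit of the serine palmitoyltransferase that starts sphingolipid synthesis, was at 56.0 ± 0.175 (wildtype) and 60.9 ± 1.09 CPM (knockout) (SD, n = 3). Its 3 knockout libraries lay above the wildtype ones, but its log2 fold change of 0.12 did not pass (edgeR adjusted p = 0.13). ORMDL1, an inhibitor of that enzyme, had a log2 fold change of 0.12 as well (adjusted p = 0.186).

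Glycolipid breakdown genes of the lysosome and membrane had 17 of 19 tested and a median of 0.01. PSAP, the precursor of the saposins that present glycolipids to lysosomal enzymes, was at 456.1 ± 4.48 and 436.5 ± 8.99 CPM (SD, n = 3; edgeR adjusted p = 0.225). GBA2, the non-lysosomal glucosylceramidase that reverses the step of UGCG, was at 37.4 ± 0.811 and 40.2 ± 0.89 CPM (log2 fold change 0.11, adjusted p = 0.248). After GC correction the GBA2 log2 fold change was 0.16 (adjusted p = 0.0477).

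Sialic acid and nucleotide sugar genes, all 14 of which were tested, had a median of 0.03. UGP2, which makes the UDP-glucose used by UGCG, was at 65.4 ± 2.10 (wildtype) and 71.8 ± 2.55 CPM (knockout) (SD, n = 3; log2 fold change 0.13, edgeR adjusted p = 0.108). UAP1, which makes UDP-N-acetylgalactosamine and UDP-N-acetylglucosamine, was at 168.6 and 180.6 CPM (adjusted p = 0.122). Of 13 genes for Golgi trafficking of glycosyltransferases, all tested, COG3 and COG6, subunits of the conserved oligomeric Golgi complex, had log2 fold changes of 0.12 and 0.07 (adjusted p = 0.172 and 0.434).

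**Figure D5:**
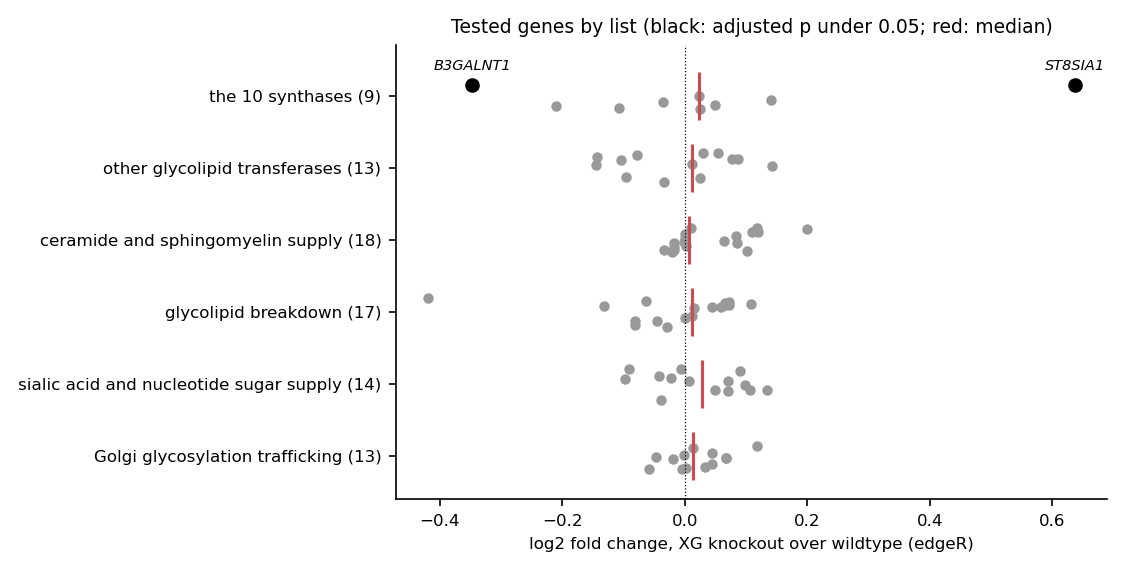
Log2 fold change of XG knockout over wildtype (horizontal axis) of each tested gene in the synthase group and 5 pathway lists (rows, number tested in brackets), with red lines for medians and black points for adjusted p under 0.05. ST8SIA1 at 0.64 and B3GALNT1 at -0.35 are the called genes, and each list has its median between 0 and 0.03.

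Genes whose log2 CPM followed the 2 changed members most closely over the 6 libraries were sought among 10328 genes with at least 5 CPM on average. For ST8SIA1 these included PI4K2B and LMO4, each with a Pearson's r of 0.99. For B3GALNT1 they were CD99, MCM4 and NEO1, with r of 0.992, 0.992 and 0.989. CD99, the surface protein related to XG and the classic marker of Ewing sarcoma, averaged 496.3 CPM in wildtype and 457.8 CPM in knockout libraries and was called lower (log2 fold change -0.12, edgeR adjusted p = 0.0302), but not after GC correction (-0.07, adjusted p = 0.142). An r over 0.95 was reached by 54 genes with ST8SIA1 and by 47 with B3GALNT1. With 6 libraries in 2 groups these values describe a shared split of the groups and the libraries' common composition.

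In the authors' deposited table, ST8SIA1 had a log2 fold change of 0.64 (SE 0.224, unadjusted p = 0.00438) and B3GALNT1 one of -0.35 (SE 0.0944, unadjusted p = 0.000234), neither with an adjusted p. The authors' deposited table gave adjusted p-values for 4 members, UGCG (0.413), B4GALNT1 (0.402), B4GALT5 (0.832) and ST3GAL2 (0.836), none past 0.05.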

How the data were processed

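RNA was sequenced from 3 wildtype and 3 XG knockout libraries, with groups and replicate numbers taken from the titles. The kit was TruSeq Stranded mRNA, per the labels' protocols; reads were aligned with STAR 2.7.6a to GRCh38, per the submitters' processing notes. The deposited values are fragment counts per gene, which the authors made with featureCounts of Subread 2.0.1 on GENCODE 33 exons with reverse-strand settings; multi-mapping reads were left uncounted by default, per the file headers. The authors also deposited, from DESeq2 1.38.3, mean normalised counts as a signal, log2 fold changes, Wald scores and p-values; the direction, not stated, was checked against the counts.

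Genes passing filterByExpr (minimum count 10, minimum total 15; 14425 genes) were normalised with TMM factors and tested two-sided with edgeR 4.0.16 (glmQLFit, glmQLFTest, no covariates) in R 4.3.3; B3GALT4 did not pass. Standard errors came from the fold change and F statistic. Total counts per library were 22557187 to 31214099, and a log2 fold change had a median SE of 0.0636 (common BCV 3.28%). Alternatives were other scalings, DESeq2 1.42.0, limma 3.58.1 voom, other filters, a replicate block, left-out libraries, knockout replicate 3 alone, a threshold of 0.01, and a GC correction (lowess, span 0.5, on the longest GENCODE transcript of an earlier release; 99.54% of tested genes had a value). Scripts were tested on simulated data. The members and lists were chosen with earlier results of these data known. Named genes are all members and, from lists with no called gene, the 2 with the smallest p; for each called member the 3 genes most alike, of which 1 is not reported here; others are marked.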

Additional observations from a re-analysis of the deposited data

How the results depend on the processing

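The counts of calls depended on single libraries more than on scaling or tool. Over all genes, 196 were called, and 647 without a filter, 339 with GC correction (157 higher, 182 lower; 64 and 132 before), 125 with knockout replicate 3 alone and 33 at an adjusted p under 0.01; leaving out 1 library gave 18 to 1851. Of the 10 synthases, 2 were called, 1 by DESeq2, 1 with at least 100 counts in 3 libraries and 1 with knockout replicate 3 alone, each time B3GALNT1, since the first gave ST8SIA1 no adjusted p and the second did not test it; 0 were called at 0.01, and 0 to 3 when 1 library was left out. The pathway lists had 0 called, 1 with GC correction and 0 to 7 with 1 library left out. The fall of XG was called in every alternative.

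The labels give same-numbered libraries a shared number and nothing more. Their deviations from the group means correlated at -0.046, -0.024 and -0.051, and no library deviated most like that of its own number. With so few libraries, these values cannot settle whether same-numbered libraries were grown or prepared together. With the replicate block 37 genes and 0 synthases were called by edgeR (B3GALNT1 adjusted p = 0.0604, ST8SIA1 0.0893), and with GC correction and the replicate block only B3GALNT1, 1 synthase, was called (adjusted p = 0.0548 for ST8SIA1).

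ST8SIA1 stayed positive in 14 alternatives (0.57 to 0.71), with its call lost in 8, and B3GALNT1 negative in 16 (-0.40 to -0.31), with its call lost in 4. Among uncalled members the sign turned with knockout replicate 3 alone for B4GALT5 (-0.0186), ST3GAL5 (-0.103) and ST3GAL2 (0.0895), and for ST3GAL2 with GC correction (0.0044) and with GC correction and the block (0.0009). Leaving out 1 library gave -0.0229 (wildtype replicate 2) to 0.1221 (knockout replicate 3) for ST3GAL5, -0.1022 (knockout replicate 3) to 0.0012 (knockout replicate 2) for ST3GAL2, and -0.1051 (knockout replicate 3) to 0.0836 (knockout replicate 1) for A4GALT, which was also negative without wildtype replicate 3 (-0.0097). The cause was not tested. B3GALT4 and B4GALT6, with about 10 counts a library, allow no statement on small changes.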
